A study of Mus musculus with 9 samples.

Results

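The mature miRNAs of the miR-124 and miR-9 precursors were examined in the mouse hippocampus: mmu-miR-124-3p and mmu-miR-124-5p, and mmu-miR-9-5p and mmu-miR-9-3p. They were chosen by name and make up 4 of the 1448 miRNAs in the table of read counts. Small RNA libraries on the BGISEQ-500 platform were made from hippocampus of C57BL/6J mice, which were male by the study's methods. The labels give no engineered allele for any group. The saline group received saline. The LPS group received a single intraperitoneal dose of 1 mg/kg lipopolysaccharide (LPS), a bacterial cell wall component that provokes inflammation. The labels of the LPS group also give an equal volume of saline, at a lower concentration than in the saline group. The LPS + GAS group received the same LPS and, 1 h later by the labels, 100 mg/kg gastrodin (GAS), a phenolic glucoside from the orchid Gastrodia elata. Each group held 3 libraries. The labels do not say whether a library came from 1 mouse or from several, so p-values measure only the spread between these libraries, which may be technical.

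miR-124 and miR-9 are the miRNAs most closely tied to neural identity. miR-124 is made by neurons, and its 3p strand lowers transcripts of non-neuronal cells, among them that of the splicing repressor Ptbp1. miR-9 is made by neural progenitors and neurons, and both of its strands are known to act: miR-9-5p on Rest, the repressor of neuronal genes, and miR-9-3p on Rcor1, a partner of that repressor. A miRNA finds its targets mainly through its seed, bases 2 to 8 counted from the 5′ end, and each hairpin precursor can give a mature strand from its 5′ arm (5p) and from its 3′ arm (3p).

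The 4 mature sequences, as deposited, are shown because their seeds separate them as regulators. Capitals mark the seed.
miR-124-3p: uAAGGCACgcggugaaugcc
miR-124-5p: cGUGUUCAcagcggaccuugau
miR-9-5p: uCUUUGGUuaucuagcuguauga
miR-9-3p: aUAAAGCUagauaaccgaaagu
No other row of the table shares any of these seeds, so reads of these 4 miRNAs are not spread over a seed family. The precursors in the table are given next because they show how the arms of a hairpin lie to each other. Capitals mark the mature arms.
mir-124-1: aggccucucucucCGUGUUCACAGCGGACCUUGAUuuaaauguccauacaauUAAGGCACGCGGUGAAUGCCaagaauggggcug
mir-9-2: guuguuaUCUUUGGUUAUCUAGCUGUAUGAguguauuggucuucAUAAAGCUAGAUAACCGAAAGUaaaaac
In the 85-base mir-124-1 hairpin, 17 bases separate the arms. In the 72-base mir-9-2 hairpin, 14 bases separate them.

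Each family is encoded at 3 places in the mouse genome (GRCm38, GENCODE annotation). Mir124a-1 lies at chr14:64590657-64590741 on the plus strand, in an exon of the long non-coding RNA Mir124a-1hg. Mir124a-2 lies at chr3:17795662-17795770, within an intron of Mir124-2hg, and Mir124a-3 at chr2:180894040-180894107, in no annotated host gene. Mir9-1 lies at chr3:88215598-88215686, within the long non-coding gene Gm3764 and opposite the annotated miRNA gene Gm25641. Mir9-2 lies at chr13:83738814-83738885, in an exon of C130071C03Rik, and Mir9-3 at chr7:79505264-79505353, within an intron of Mir9-3hg. All 6 genes are on the plus strand, and the transcript of each held both mature arms exactly. A count of a mature miRNA is therefore a sum over 3 loci that cannot be told apart.

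The libraries held 10119758 to 11457656 reads assigned to miRNAs. For miR-124-3p and both miR-9 strands, counting error at this depth was small beside the spread between libraries. In saline replicate 1, miR-124-3p took 3.80% of reads with an exact 95% binomial interval of 3.79% to 3.81%, which covers counting error only. This did not hold for miR-124-5p, which took 0.00277% of reads in that library. Its interval, 0.00247% to 0.00309%, overlapped those of the other saline libraries. Of the 1448 rows, 628 had at least 10 reads in at least 3 libraries and were tested, including all 4 of these miRNAs. Lists of other miRNAs were used to describe the tissue in each library, and every miRNA of every list was detected. The summed level in CPM (read counts scaled to a common total) ran from 1964 to 6004 for 4 oligodendrocyte miRNAs, from 2569 to 6226 for 4 leukocyte and microglia miRNAs, from 16408 to 22894 for 4 vascular miRNAs, from 2025 to 6175 for 4 red blood cell miRNAs, from 9390 to 57304 for 8 choroid plexus and ependyma miRNAs, from 38.3 to 90.9 for 3 muscle miRNAs and from 8.31 to 11.9 for a liver miRNA. None of their members was called in any comparison. Some sums rest mostly on a single abundant miRNA. In the leukocyte and microglia list, miR-150-5p averaged 4795 CPM and no other miRNA more than 14.6. In the red blood cell list, miR-451a averaged 3647 CPM and no other more than 43.1. In the choroid plexus and ependyma list, miR-204-5p averaged 19222 CPM and no other more than 832. The red blood cell list was higher in the LPS + GAS libraries (4541 to 6175 CPM) than in the LPS (2150 to 3241) and saline (2025 to 4267) libraries, without overlap. Of single miRNAs, 8.6% were without overlap against LPS and 7.32% against saline. In LPS + GAS vs LPS, 3 of its 4 miRNAs had an unadjusted p under 0.05, against 23 of 628. In the same comparison all miRNAs of the oligodendrocyte, leukocyte and microglia, choroid plexus and ependyma, and liver lists were also higher. So were 3 of 4 vascular and 2 of 3 muscle miRNAs. The part of any of these cells in the miR-124 and miR-9 values was not tested.

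miR-124-3p and both strands of miR-9 were among the most abundant miRNAs of the hippocampus, whereas miR-124-5p was scarce. Together, the 4 miRNAs took from 7.42% of reads in saline replicate 1 to 11.5% in LPS + GAS replicate 2. As counted, the order miR-124-3p, miR-9-5p, miR-9-3p, miR-124-5p held in 9 of 9 libraries. It turns if the reads of miR-9b-3p, the row of the opposite DNA strand described further on, are added to miR-9-5p, which then exceeds miR-124-3p in each library. miR-124-3p had 1.56 to 4.35 times the reads of miR-9-5p. miR-9-5p had 1.09 to 2.14 times those of miR-9-3p, the closest neighbours in this order. Levels of different miRNAs are compared here as reads, since all are of nearly the same length, and small RNA library preparation can favour some sequences over others.

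**Figure D1:**
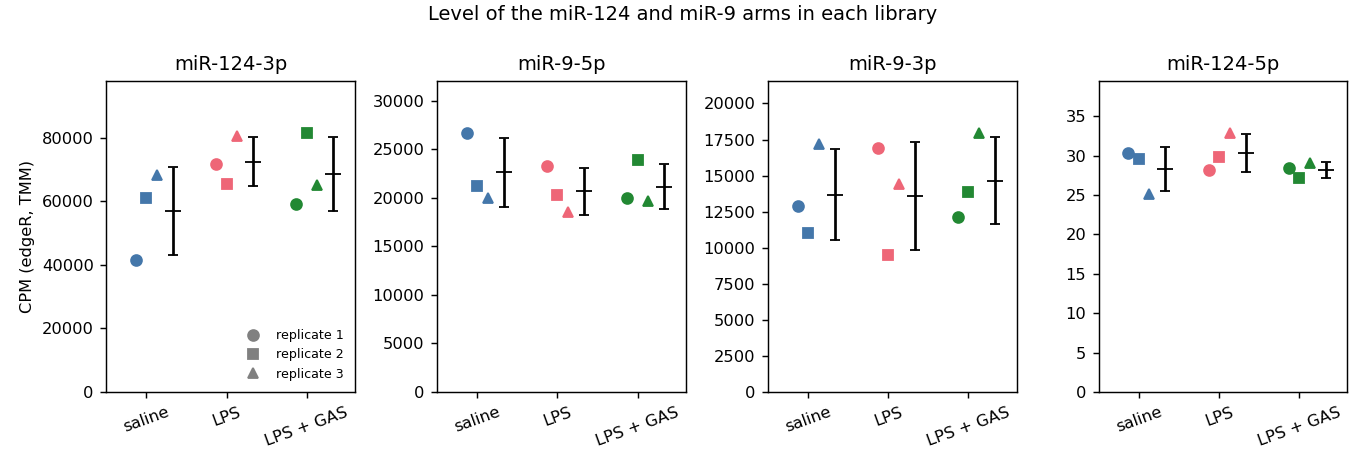
Level of each miRNA in CPM (edgeR, TMM, linear axis from 0) in the 9 libraries, coloured by group with a symbol for each replicate number; the bar beside each group is the mean ± SD of 3 libraries. The groups overlap in every panel, and saline replicate 1 has the lowest miR-124-3p (41631 CPM) and the highest miR-9-5p (26707 CPM).

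miR-124-3p, the strand through which miR-124 is known to act in neurons, had 435825, 690056 and 678164 reads with saline, 719476, 787540 and 800473 with LPS, and 633673, 806293 and 675063 with LPS + GAS. It ranked between 2 and 6 in a library. Scaled for library size and composition (TMM), these were 41631, 61028 and 68351 CPM with saline, 71606, 65423 and 80516 CPM with LPS, and 59143, 81557 and 65031 CPM with LPS + GAS. Saline replicate 1 stood below the other 8 libraries, and the other saline values overlapped those of both treated groups. The group means were 57003 ± 13807 (SD, n = 3), 72515 ± 7588 and 68577 ± 11620 CPM.

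miR-9-5p, the strand that acts on Rest, had 279587, 240057 and 198202 reads with saline, 233641, 244219 and 183956 with LPS, and 214009, 235867 and 204094 with LPS + GAS. In CPM, the levels were 26707, 21230 and 19977 with saline, 23253, 20288 and 18503 with LPS, and 19974, 23858 and 19661 with LPS + GAS. All 3 groups spanned much the same range, and the means were 22638 ± 3579, 20681 ± 2399 and 21164 ± 2338 CPM. Its coefficient of variation over the 9 libraries, 12.1%, was the 62nd lowest of the 628 miRNAs tested, whose median was 23.6%.

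miR-9-3p, the strand that acts on Rcor1, had 134972, 124355 and 170346 reads with saline, 169779, 114365 and 143079 with LPS, and 129645, 137097 and 186484 with LPS + GAS. The levels were 12893, 10998 and 17169 CPM with saline, 16897, 9501 and 14392 CPM with LPS, and 12100, 13867 and 17965 CPM with LPS + GAS. LPS replicate 2 was the lowest and LPS + GAS replicate 3 the highest, and each group covered most of the range. The means were 13687 ± 3161, 13597 ± 3762 and 14644 ± 3008 CPM, and the coefficient of variation was 20.9%.

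miR-124-5p, the opposite strand of the miR-124 hairpin, which is usually discarded, had 317, 335 and 249 reads with saline, 283, 359 and 327 with LPS, and 305, 268 and 302 with LPS + GAS. The levels were 30.3, 29.6 and 25.1 CPM with saline, 28.2, 29.8 and 32.9 CPM with LPS, and 28.5, 27.1 and 29.1 CPM with LPS + GAS. Despite the low counts it varied little: its coefficient of variation, 7.49%, was the 7th lowest of 628. The means were 28.3 ± 2.82, 30.3 ± 2.40 and 28.2 ± 1.01 CPM.

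LPS was compared with saline to ask whether systemic inflammation altered these miRNAs. None of the 4 was called (edgeR quasi-likelihood test, Benjamini-Hochberg adjusted p of at most 0.05 and absolute log2 fold change of at least 1), against 0% of all 628 miRNAs, and none had an unadjusted p under 0.05, against 15 of 628. miR-124-3p had a log2 fold change of 0.35 (SE 0.21, 95% interval -0.12 to 0.81), or 1.27-fold, with an edgeR adjusted p of 0.992. For miR-9-5p the log2 fold change was -0.13 (SE 0.17, interval -0.51 to 0.25). miR-9-3p was at -0.0095 (SE 0.26, interval -0.58 to 0.56) and miR-124-5p at 0.096 (SE 0.17, interval -0.29 to 0.48). The intervals of all 4 exclude a doubling (a log2 fold change of 1) and its inverse, but not smaller changes. In bulk tissue, fewer cells of a type and less RNA per cell cannot be told apart.

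Whether the miR-124-3p values of the LPS and saline groups overlapped depended on the scaling. In TMM-scaled CPM, LPS replicate 2 (65423) was below saline replicate 3 (68351), so that 0 of the 4 miRNAs were without overlap, against 3.82% of all miRNAs. In CPM without TMM factors, the LPS libraries ran from 69506 to 78314 and the saline libraries from 38038 to 66274, without overlap, as for 4.62% of all miRNAs. With DESeq2 size factors these groups also did not overlap, as for 3.5% of all miRNAs. LPS replicate 2 had the highest TMM factor of the 9 libraries, 1.19. Without saline replicate 1, the log2 fold change of miR-124-3p was 0.21.

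The choroid plexus and ependyma list was high in the library with the lowest miR-124-3p. Its 8 miRNAs summed to 29618 CPM in saline replicate 1, against 9390 and 10858 CPM in the other saline libraries. They summed to 22349, 10083 and 9479 CPM with LPS, and to 57304, 12064 and 26146 CPM with LPS + GAS, where replicate 1 again had the lowest miR-124-3p of its group. In the LPS group, replicate 1 had the highest sum but not the lowest miR-124-3p. The vascular, leukocyte and microglia, and muscle sums were also highest of the saline group in saline replicate 1 (22894, 5325 and 86.5 CPM). The oligodendrocyte and red blood cell sums (5979 and 3940 CPM) were exceeded in saline replicate 2 (6004 and 4267 CPM). The liver miRNA (10.4 CPM) was exceeded in saline replicate 3 (10.7 CPM). The part of any of these cells in the miR-124-3p values was not tested.

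LPS + GAS was compared with LPS to ask whether gastrodin altered these miRNAs in treated mice. Again 0 of 4 were called, against 0% of all miRNAs. The 4 had no unadjusted p under 0.05, which 23 of 628 miRNAs had, and 0 of 4 were without overlap, against 8.6% of all miRNAs. The log2 fold changes were -0.081 (SE 0.21, interval -0.55 to 0.39) for miR-124-3p and 0.033 (SE 0.17, interval -0.34 to 0.41) for miR-9-5p. They were 0.11 (SE 0.26, interval -0.46 to 0.68) for miR-9-3p and -0.10 (SE 0.17, interval -0.49 to 0.28) for miR-124-5p. The edgeR adjusted p-values ran from 0.975 to 0.996.

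LPS + GAS was compared with saline to ask whether treated mice differed from those that received neither agent. This comparison shares its libraries with the other two. None of the 4 miRNAs was called, against 0.159% of all miRNAs (1 of 628), none had an unadjusted p under 0.05, against 21 of 628, and 0 of 4 were without overlap, against 7.32%. The log2 fold changes were 0.27 (SE 0.21, interval -0.20 to 0.73) for miR-124-3p and -0.097 (SE 0.17, interval -0.47 to 0.28) for miR-9-5p. miR-9-3p was at 0.098 (SE 0.26, interval -0.47 to 0.67) and miR-124-5p at -0.0058 (SE 0.17, interval -0.39 to 0.38). The edgeR adjusted p-values ran from 0.998 to 0.999.

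**Figure D2:**
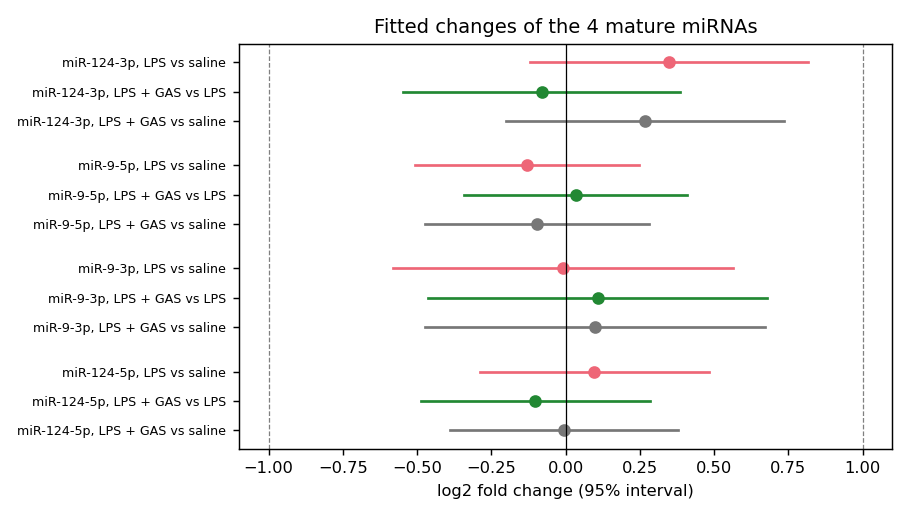
Log2 fold change of each miRNA in each comparison (points) with its 95% interval from edgeR (lines); dashed lines mark log2 fold changes of -1 and 1. Every interval includes 0 and lies between the dashed lines, and the point farthest from 0 is miR-124-3p in LPS vs saline (0.35).

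The strands of a hairpin were then compared within a library, where scaling has no part. miR-124-3p had 1375 to 3009 times the reads of miR-124-5p. The log2 ratio of miR-124-5p to miR-124-3p was -10.95 ± 0.50 (SD, n = 3) with saline, -11.22 ± 0.11 with LPS and -11.23 ± 0.28 with LPS + GAS. As counted, the strands of miR-9 were much closer: the log2 ratio of miR-9-3p to miR-9-5p was -0.74 ± 0.45, -0.64 ± 0.40 and -0.55 ± 0.36. Between the families, the log2 ratio of miR-9-5p to miR-124-3p was -1.31 ± 0.60, -1.81 ± 0.27 and -1.69 ± 0.11, and the saline group held both the highest value (-0.64, replicate 1) and a value within the range of the LPS group (-1.77, replicate 3). In exact two-sided permutation tests, the 9 comparisons of these ratios gave p from 0.3 to 1 (adjusted p = 1), where 0.1 is the smallest that 3 libraries against 3 can give. The labels do not pair the libraries. In LPS + GAS vs saline, the replicate numbers were taken as pairs because of correlations in these same data. There the log2 ratio of miR-9-3p to miR-9-5p was higher with LPS + GAS in 3 of 3 pairs by 0.19 on average. The exact two-sided paired p was 0.25, the smallest that 3 pairs can give, and 0.964 after adjustment over 9 tests. In LPS vs saline the numbers were not taken as pairs, since the correlation for replicate 3 was negative (-0.28). If paired by number all the same, the log2 ratio of miR-9-5p to miR-124-3p was higher with LPS in 0 of 3 pairs. Its exact two-sided paired p was also 0.25, and 0.964 after adjustment. Of the 9 paired tests, only those at the smallest possible p are described here.

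**Figure D3:**
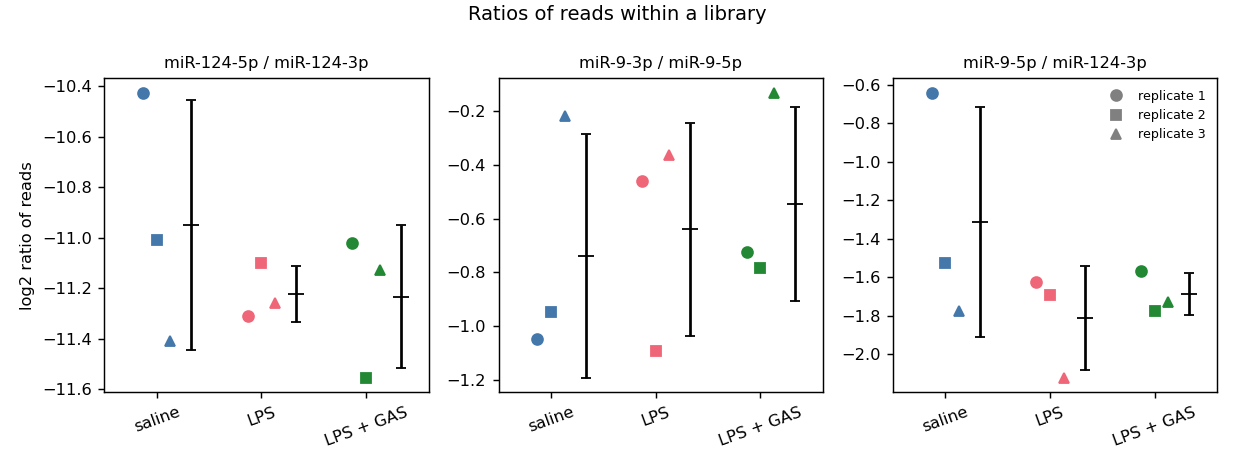
Log2 ratio of reads in each of the 9 libraries for miR-124-5p over miR-124-3p, miR-9-3p over miR-9-5p and miR-9-5p over miR-124-3p, coloured by group with a symbol for each replicate number and with the mean ± SD of 3 libraries. The groups overlap in every panel, and the miR-9-3p to miR-9-5p ratio, as counted, is highest in replicate 3 of each group.

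Over most of their bases, the miR-9 strands are reverse complements of rows annotated to the opposite DNA strand. These rows are shown because they bear on what a miR-9 count holds. Capitals mark the bases that are the exact reverse complement of miR-9-5p, of miR-9-3p and of miR-124-5p.
miR-9b-3p: AUACAGCUAGAUAACCAAAGA
miR-9b-5p: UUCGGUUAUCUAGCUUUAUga
miR-124b-3p: UCAAGGUCCGCUGUGAACACGg
All 21 bases of miR-9b-3p are the reverse complement of bases 1 to 21 of miR-9-5p. RefSeq places them together (GRCm38.p6), for Mir9-2 at chr13:83738821-83738843 on the plus strand for miR-9-5p and at chr13:83738821-83738841 on the minus strand for miR-9b-3p, and likewise at both other miR-9 genes. The sources used here do not give whether reads were counted by strand. If they were not, reads of these rows cannot be told apart.

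miR-9b-3p was the most abundant row of the table in 9 of 9 libraries. It had 1310654, 1160150 and 1254286 reads with saline, 1208787, 1193003 and 1107026 with LPS, and 1100594, 1223736 and 1198951 with LPS + GAS. It exceeded miR-9-5p by 4.69 to 6.33 times and took 82.4% to 86.4% of the reads of the pair. With it added, the 4 miRNAs would take 18.9% to 23.5% of all reads. Its log2 fold changes were -0.099 for LPS vs saline, 0.048 for the addition of GAS to LPS and -0.051 for LPS + GAS vs saline (SE 0.15 each, edgeR adjusted p from 0.992 to 0.998). Over its 21 bases miR-9b-3p also differs from miR-9-3p by A4C, G17A, A20G and G21A, where positions count from the 5′ end and the first letter is that of miR-9-3p.

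The miR-9 ratios depend on this row. With miR-9b-3p added to miR-9-5p, and miR-9b-5p to miR-9-3p, the log2 ratio of miR-9-3p to miR-9-5p was -3.38 ± 0.25 with saline, -3.30 ± 0.30 with LPS and -3.22 ± 0.27 with LPS + GAS. miR-9-3p then had 0.080 to 0.13 of the reads of miR-9-5p. The log2 ratio of miR-9-5p to miR-124-3p became positive in all 9 libraries, with 1.87, 1.02 and 1.10 for saline, 1.00, 0.87 and 0.69 for LPS, and 1.05, 0.86 and 1.06 for LPS + GAS. The LPS and saline values no longer overlapped, by a narrow gap (highest LPS value 1.00, lowest saline value 1.02). How often other ratios of miRNAs are without overlap was not counted. The LPS and saline means differed by -0.48. The exact two-sided permutation p of this difference was 0.1, the smallest that this design can give, and 0.72 after adjustment over 9 tests. Adding the rows was chosen after seeing the data.

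The other opposite-strand rows were low. miR-9b-5p had 0 to 5 reads in a library and was not tested. miR-124b-3p had 59 to 110 reads, 15.7% to 27.6% of its pair with miR-124-5p, with log2 fold changes of 0.11, 0.056 and 0.16 in the same order (SE 0.27 each). In the whole table, 39 pairs of rows held a reverse-complement run of at least 18 bases. Of the 32 whose higher row averaged at least 10 reads, the lower row had under 10% of the pair in 20 and under 1% in 13. In the pair of miR-9b-3p and miR-9-5p the lower row, miR-9-5p, averaged 15.9% of the pair and 225959 reads.

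**Figure D4:**
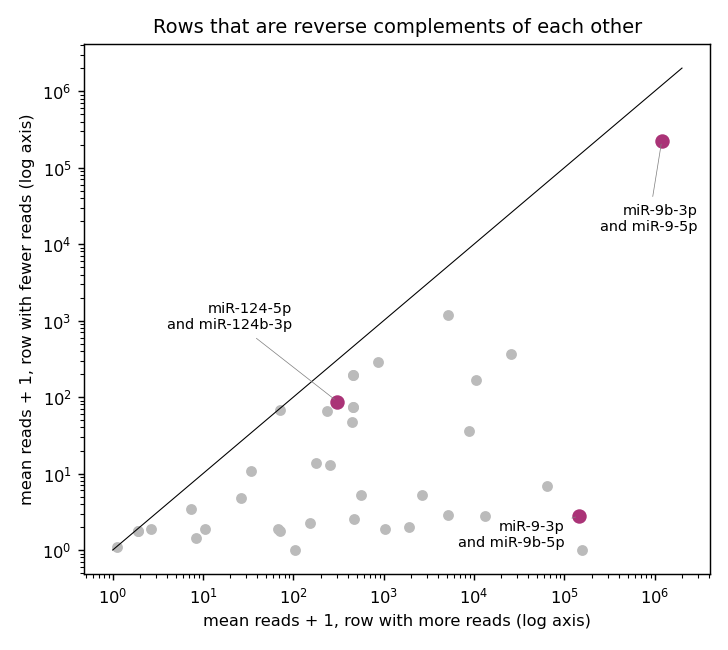
Mean reads over 9 libraries (plus 1, both axes logarithmic) of the 39 pairs of rows that are reverse complements over at least 18 bases, the row with more reads on the horizontal axis; the line marks equality and the pairs that hold a miR-9 or miR-124 strand are named. miR-9b-3p with miR-9-5p lies far to the upper right, with 225959 mean reads in its lower row, while miR-9-3p with miR-9b-5p lies at the foot.

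The table also gives a whole number called exp for each miRNA and library, never above its read count. The sources used here do not give how it was made. For miR-124-5p, reads and exp were nearly equal, with 1.00 to 1.01 reads per exp. There were 1.63 to 2.10 reads per exp for miR-9-3p, 2.04 to 2.48 for miR-9-5p and 3.25 to 5.31 for miR-124-3p. In exp the abundant strands were thus closer together than in reads, and the 4 miRNAs took 7.09% to 7.86% of all exp. The same held over the table: the median reads per exp was 1.02 for miRNAs of 1000 to 10000 mean reads and 2.36 for the 22 with 100000 or more. In CPM of exp, miR-124-3p ran from 34767 to 36121 with LPS and from 29266 to 33698 with saline, without overlap, as for 4.3% of all miRNAs.

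**Figure D5:**
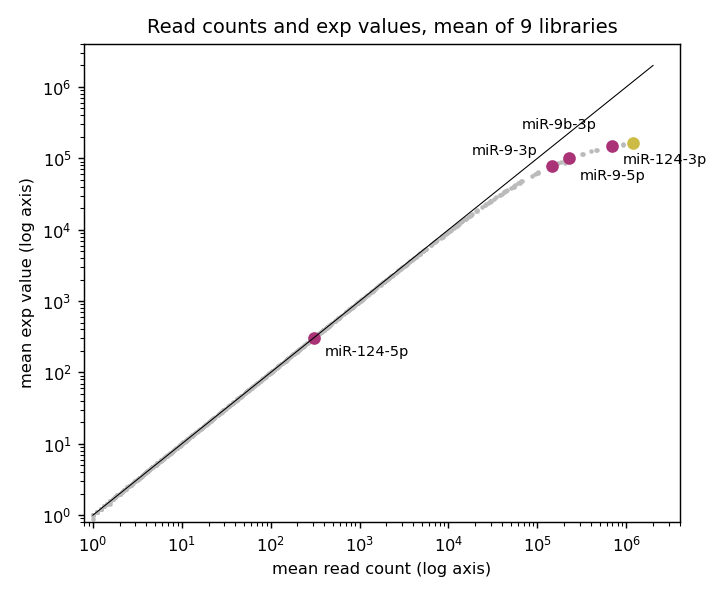
Mean read count against mean exp value over 9 libraries (both axes logarithmic) for every miRNA with at least 1 mean read; the line marks equality and the miR-124 and miR-9 strands and miR-9b-3p are named. miR-124-5p lies on the line, while the points above 100000 reads bend below it.

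Neighbours in mean level differed in how firmly they were ordered. let-7c-5p (87171 CPM) was above miR-124-3p in 8 of 9 libraries, and miR-99a-5p (44427 CPM) was below it in 8 of 9. miR-127-3p (22788 CPM) was above miR-9-5p in 5 of 9 and let-7d-5p (21369 CPM) below it in 6 of 9, so their order varied between libraries. miR-126a-3p (15089 CPM) was above miR-9-3p in 6 of 9, and miR-138-5p (9745 CPM) was below it in 9 of 9. miR-27b-5p (29.1 CPM) and miR-758-3p (28.9 CPM), beside miR-124-5p, were above it in 4 and below it in 5 of 9 libraries.

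The miRNAs whose log2 CPM followed each strand most closely over the 9 libraries were found among those with at least 100 mean CPM, as a description of libraries that share treatment and scaling. For miR-124-3p these were miR-490-5p (Pearson's r = 0.81), miR-344-3p (0.77) and miR-1843b-5p (0.70). For miR-9-3p they were let-7f-5p (0.89), miR-872-5p (0.87) and miR-410-3p (0.87). For miR-9-5p they were miR-301a-3p (0.72), miR-181b-5p (0.62) and miR-135a-5p (0.59), and for miR-124-5p they were miR-329-3p (0.76), miR-125b-5p (0.67) and miR-23b-3p (0.65). Between strands of a precursor, r was -0.052 for miR-9-5p and miR-9-3p and -0.14 for miR-124-3p and miR-124-5p. With 9 libraries, and few reads for miR-124-5p, values near 0 cannot show that strands do not follow each other. The miR-9-5p reads here leave out miR-9b-3p. Between miR-124-3p and miR-9-5p, r was -0.50.

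The 9 other miRNAs of the neuronal list, which are known to be abundant in neurons, gave the setting for these results. All 9 were tested, and none was called or had an unadjusted p under 0.05 in any comparison. Their summed level ran from 50465 to 59401 CPM with saline, 55134 to 57549 with LPS and 48682 to 53336 with LPS + GAS. The LPS + GAS sums were thus below the LPS sums without overlap, where 8.6% of single miRNAs were without overlap. Both overlapped the saline sums. The cause was not tested. With LPS against saline, 6 had a positive and 3 a negative log2 fold change, and their median was 0.017 (-0.045 over all miRNAs). When LPS + GAS was set against LPS, 3 were positive and 6 negative, with a median of -0.075 (0.0030 over all). Against saline, the counts were again 3 and 6, with a median of -0.018 (-0.028 over all). miR-218-5p, a miRNA of motor and other neurons, was at -0.0063, -0.25 and -0.26 in the same order (SE 0.15 each). miR-128-3p, which restrains neuronal excitability, was at 0.24, -0.075 and 0.16 (SE 0.23 each). miR-132-3p, which neuronal activity induces through the factor CREB, was at 0.19, -0.21 and -0.027 (SE 0.24 each). Of the rest of the list, miR-129-5p was at -0.056, 0.051 and -0.0044, and miR-137-3p at 0.017, 0.0027 and 0.020. miR-138-5p was at -0.023, 0.0050 and -0.018, and miR-153-3p at 0.15, -0.043 and 0.11. miR-7a-5p was at 0.0047, -0.26 and -0.26, and miR-212-3p at 0.093, -0.12 and -0.026.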

How the data were processed

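The authors deposited a table of 1448 mature miRNAs with their sequences, whole-number read counts per library, which are not normalized, and exp values. The genome build in the submitters' processing notes is GRCm38.p6; aligner, miRNA release and use of strand: not given in the sources used here. The deposited averages per group (a score that is the authors' mean) and the authors' comparisons, which hold log2 fold changes and DESeq2 p-values and q-values, entered no result. Columns per library were mapped by name, and 0 belonged to no sample.

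Differential abundance was tested with edgeR 4.0.16 under R 4.3.3. A minimum of 10 reads in 3 or more of the 9 libraries left 628 miRNAs, TMM factors ran from 0.914 to 1.19, and all libraries were fitted with a mean per group (glmQLFit, glmQLFTest), with Benjamini-Hochberg adjustment over 628. For a call, the adjusted p could be no more than 0.05 and the absolute log2 fold change no less than 1. CPM use TMM-scaled totals. Ratios of reads were compared by exact permutation over 20 divisions of 6 libraries, with adjustment over 9 tests. The code was tested on simulated data. Libraries of a group differed by far more than sampling noise (chi-square per degree of freedom at least 278), so all were counted.

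The miRNAs and lists were chosen with earlier results of these data known. The text names the 4 miRNAs, rows with their names plus a letter, the 3 best-correlated miRNAs of at least 100 mean CPM and neighbours in mean CPM. It also gives the neuronal list and, mainly by summed level, the marker lists. Alternatives were DESeq2 1.42.0 size factors or Wald test, library totals with or without the 4 miRNAs, no filter, at least 50 reads, voom (limma 3.58.1), the replicate number as a block, only the groups compared, exp values, and each library left out in turn. Adding the opposite-strand row to its partner was chosen after seeing the data. Deviations from the group means of same-numbered libraries correlated by 0.30, 0.33 and 0.37 in LPS + GAS vs saline, so the numbers were taken to pair the samples there; in each of the other comparisons at least 1 of these correlations was negative.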

Additional observations from a re-analysis of the deposited data

How the results depend on the processing

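In each comparison 0 of the 4 miRNAs were called under each of 20 alternatives. Of 381 alternative values, 49 changed sign, and 0 of the 240 that are fold changes passed the threshold. The 381 include the counts of miRNAs called, which have no sign to change. The cause of the changes in sign was not tested. The tests of ratios could not reach 0.05 in this design under any alternative. miR-9-3p in LPS vs saline (-0.0095) was 0.042 with DESeq2 size factors and with the Wald test, 0.065 with library totals, 0.094 with totals without the 4 miRNAs, 0.037 with no filter, 0.025 with at least 50 reads, 0.041 with exp values and 0.030 with the opposite-strand row added. miR-124-5p in LPS + GAS vs saline (-0.0058) was 0.051, 0.051, 0.016, 0.044, 0.030, 0.031 and 0.071 with DESeq2 size factors, the Wald test, totals without the 4 miRNAs, no filter, at least 50 reads, exp values and the opposite-strand row. miR-9-5p was -0.051 and -0.063 in LPS + GAS vs LPS with library totals and with totals without the 4 miRNAs, and 0.012 in LPS + GAS vs saline with exp values. The log2 ratio of miR-124-5p to miR-124-3p differed by 0.027 in LPS + GAS vs LPS with the opposite-strand row (-0.011 without it).

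With each library left out in turn, in the order LPS vs saline, then LPS + GAS against LPS and against saline, miR-124-3p ran from 0.21 to 0.50, -0.22 to 0.030 and 0.13 to 0.42. miR-9-5p ran from -0.22 to 0.047, -0.061 to 0.13 and -0.19 to 0.089. miR-9-3p ran from -0.20 to 0.22, -0.081 to 0.29 and -0.0073 to 0.29, and miR-124-5p from 0.016 to 0.19, -0.15 to -0.037 and -0.086 to 0.090. The difference in the log2 ratio of miR-124-5p to miR-124-3p ran from -0.51 to -0.013, -0.12 to 0.15 and -0.52 to -0.024. That of miR-9-3p to miR-9-5p ran from -0.056 to 0.36, -0.13 to 0.23 and -0.014 to 0.45. That of miR-9-5p to miR-124-3p ran from -0.73 to -0.16, -0.032 to 0.22 and -0.61 to -0.039, and the values nearest 0 against saline were those without saline replicate 1.

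With the replicate number as a block, miR-124-3p was at 0.38, -0.091 and 0.28 and 0 of the 4 were called, so the block changed no call. The paired tests of the ratios gave exact p from 0.25 to 1. Library totals in place of TMM factors moved the median of all miRNAs in LPS vs saline from -0.045 to 0.055, and totals without the 4 miRNAs moved it to 0.085. miR-124-5p rests on 249 to 359 reads a library.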

Other observations

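As counted, the ratio of miR-9-3p to miR-9-5p reads was highest in replicate 3 of each group. It was 0.483, 0.727 and 0.606 in replicate 1 of saline, LPS and LPS + GAS, 0.518, 0.468 and 0.581 in replicate 2, and 0.859, 0.778 and 0.914 in replicate 3. Replicates 1 and 2 overlapped. With the opposite-strand rows added, the log2 ratio in the LPS group was higher in replicate 1 (-3.09) than in replicate 3 (-3.17), so the pattern no longer held in that group. Replicate 3 stayed highest with saline (-3.09, against -3.56 and -3.49) and with LPS + GAS (-2.91, against -3.34 and -3.41). The labels give no batch or day, and the pattern was seen in the data and not tested.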
